A study of Prunus persica with 25 samples.

Results

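Flower buds and vegetative buds of Fantasia peach were compared by RNA sequencing at 930CU, the collection made after the chilling requirement of this cultivar had been met. The comparison holds 5 of the 25 libraries of the study. These are 3 libraries of vegetative buds and 2 of flower buds, all from the second sampling period (year B) and chosen by tissue and collection. Chilling units (CU) follow the Utah model, and the sample labels name the same collection Post770CU. Both bud types came from axillary triplets on orchard trees, in which a central vegetative bud stands between lateral flower buds, and their outer scales had been removed. No treatment other than winter in the field was applied. Each library holds RNA of whole buds, so fewer cells of a type and less RNA per cell cannot be told apart. The labels give polyA RNA and 1 stranded mRNA kit for all 5 libraries.

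In peach, a vegetative axillary bud holds a shoot apical meristem with leaf primordia, and a flower bud holds a flower whose organs were initiated before winter. DAM genes are MADS-box genes of the SVP family that lie in tandem on chromosome 1, and their expression is known to follow dormancy and chilling in peach buds. Abscisic acid (ABA) is known for growth arrest and dormancy, gibberellins (GA) for growth, and jasmonates (JA) for stress responses and the maturation of floral organs. Gene symbols are those the study gives. A product name was at hand for 1627 genes, so most genes are known here by identifier alone.

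Levels are given as CPM, counts scaled for library size, with TMM factors from both bud types together. The fold changes below are log2 ratios of vegetative over flower buds with their standard error (SE), so a positive value means a higher level in vegetative buds. They come from edgeR's quasi-likelihood test, fitted on 10 libraries, these 5 and the 3 vegetative and 2 flower libraries of Pre0CU, the collection before any chilling. The vegetative libraries of Pre0CU are labelled total RNA and the others polyA RNA, so at Pre0CU, and in any change between the collections, this label and the bud type cannot be told apart. A gene was called when its Benjamini-Hochberg FDR over all tested genes was below 0.05 and its fold change above 1.4. Total counts per library were 46217949 to 71239880 in vegetative buds and 51699406 to 61090788 in flower buds. The vegetative library of replicate 1 stood apart from replicates 2 and 3, with a chi-square per gene of 11 and 12.3 against them, where sampling noise alone gives 1. Replicates 2 and 3 differed from each other by 2.88 and the flower pair by 9.67, so no library was a copy of another. In a principal component analysis of the 5 libraries the first component held 77.9% of the variance and separated the bud types.

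Values near 1 CPM need care in these tables. A set of 2263 genes had no count in any of the 9 libraries of the first sampling period. In the 5 libraries at 930CU these genes had medians of 0.74 to 0.804 CPM and 95th percentiles of 2.41 to 2.54 CPM. Levels of that size are therefore not read as expression. Neighbouring genes also shared values. Among genes with at least 10 counts in all of 9 vegetative libraries of the second period, 17.4% had a neighbour within 5 positions whose count lay within 1.25-fold in every library, against 3.6% in the 9 libraries of the first period. In the 5 libraries at 930CU, 6876 of 26204 genes with at least 10 counts in each (26.2%) had such a match. Of the 7578 called genes, 762 had one.

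The bud types differed widely. Of 26790 genes tested, 7578 (28.3%) were called, 3478 (13.0%) higher in vegetative buds and 4100 (15.3%) higher in flower buds. The libraries of both bud types did not overlap for 7520 of the called genes (99.2%), against 65.3% of all genes tested. The median log2 fold change of all genes was 0.007. The counts in each direction were of similar size, while the sizes of the differences were not. Called genes differed more than 2-fold in 1002 cases toward vegetative and 1829 toward flower buds. Above 4-fold the counts were 35 and 525, and above 8-fold they were 0 and 148. The largest value toward vegetative buds was 2.91 on the log2 scale, while 28 genes exceeded 32-fold toward flower buds. Among genes with a mean of at least 2 CPM in the higher bud type, 29 and 503 differed more than 4-fold. When calls required an absolute log2 fold change above 1.4, 322 genes were higher in vegetative and 1071 in flower buds.

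**Figure D1:**
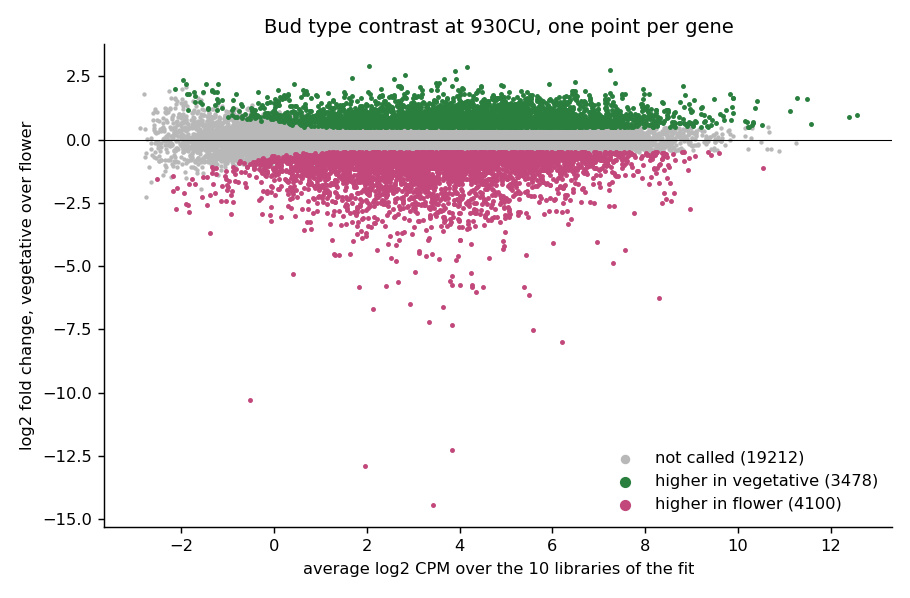
Each point is 1 of the 26790 genes tested, with its average log2 CPM on the x axis and its log2 fold change at 930CU, vegetative over flower, on the y axis. The points called higher in flower buds reach far lower on the y axis than those called higher in vegetative buds reach upward, where the largest value is 2.91.

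Among called genes without overlap and with an average log2 CPM of 3 or more, the 20 with the largest change in each direction differed by at least 2.00 toward vegetative and 5.24 toward flower buds on the log2 scale, and 0 of them had a product name. Among abundant genes, PRUPE_1G489400 was at 1.25, 1.54 and 1.18 CPM in the vegetative and 335 and 335 CPM in the flower libraries (log2 fold change -7.99 ± 0.10 SE). PRUPE_6G321400 reached 1325 and 1322 CPM in flower buds and 17.2, 17.9 and 16.6 CPM in vegetative buds (-6.26 ± 0.08). The vegetative libraries thus held the first of these genes at the level seen for genes without reads elsewhere. In the other direction, PRUPE_1G365600 was at 418, 420.2 and 428 CPM in vegetative and 64.9 and 59.1 CPM in flower buds (2.77 ± 0.10), and PRUPE_7G216200 was at 687, 597 and 589.8 and 144 and 140.4 CPM (2.13 ± 0.07).

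The tissue labels were checked with floral and meristem genes. *LFY* (PRUPE_5G140700), which specifies floral meristem identity, was at 5.10, 4.98 and 5.12 CPM in the vegetative libraries and at 80.0 and 84.0 CPM in the flower libraries (-4.01 ± 0.08, FDR 1.1e-12). *AGL79* (PRUPE_3G249300), a MADS-box gene that the study lists with the *APETALA1* gene of Arabidopsis as its counterpart, was at 6.53, 5.36 and 5.31 against 50.3 and 53.0 CPM (-3.18 ± 0.08). *SEP1* (PRUPE_1G290500), a floral organ identity gene, was at 1.51, 1.05 and 1.44 against 11.7 and 11.7 CPM (-3.13 ± 0.21). For these genes each flower library lay above each vegetative library, and *SEP1* in vegetative buds lay within the level of genes without reads elsewhere. *AGL20B* (PRUPE_5G149400), which the paper groups with *LFY* and *AGL79* as flower-biased over all its collections, was not called at 930CU (0.18 ± 0.21). It was at 1.86, 1.24 and 1.66 against 1.38 and 1.42 CPM, also within that level, and its counts matched those of a neighbour. At Pre0CU *AGL20B* was called higher in flower buds, with 2.73, 2.14 and 2.31 against 4.78 and 5.29 CPM (-1.07 ± 0.19). Of the 4 genes in the study's floral meristem role, 2 were called higher in flower and 1 in vegetative buds. Among the genes set as vegetative markers, *KNAT1* (PRUPE_1G416700), a KNOX homeobox gene of the shoot apex, was higher in vegetative buds with 82.0, 73.3 and 72.3 against 34.2 and 32.0 CPM (1.19 ± 0.09), and its counts matched those of a neighbour. *CLAVATA3/ESR* (PRUPE_8G204100), whose listed counterpart is *CLE44*, a peptide of vascular meristems in Arabidopsis, was at 15.9, 12.6 and 11.6 against 8.83 and 9.75 CPM (0.52 ± 0.12). Its call was lost without vegetative replicate 1 (0.37) and without flower replicate 1 (0.44).

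*STM* (PRUPE_4G015200), the KNOX gene that keeps the shoot meristem undifferentiated, had also been set as a vegetative marker and went the other way. It was at 15.7, 17.4 and 16.1 CPM in vegetative and 48.8 and 42.5 CPM in flower buds (-1.48 ± 0.10, FDR 4.2e-08). At Pre0CU it was at 33.0, 36.8 and 30.1 and 34.2 and 27.8 CPM and was not called (0.10 ± 0.10). *PRS* (PRUPE_6G088900), a WOX gene of lateral organ margins, was at 11.7, 10.4 and 13.7 against 8.98 and 10.2 CPM and was not called (0.32 ± 0.12). Of the 4 genes set as vegetative markers, 2 were thus called higher in vegetative buds and 1 in flower buds. The YABBY factor PRUPE_2G140400, the counterpart of *FIL*, which marks the lower side of lateral organs in Arabidopsis, was at 20.5, 22.3 and 24.2 against 53.2 and 57.1 CPM (-1.30 ± 0.09), and so was also higher in flower buds. Of 5 leaf polarity and lateral organ genes, 1 was called higher in vegetative and 3 in flower buds. Of 6 genes of chlorophyll binding and photosystems, 1 was higher in vegetative and 2 in flower buds, and of 3 genes of the xylem and vascular list 0 and 2. Of all genes with a product name, from which these lists come, 21.4% were higher in vegetative and 29.9% in flower buds. The study had grouped these genes for their decline with chilling in vegetative buds, so the lists are not an independent check of the tissue. The words for floral organ MADS genes caught only *DAM1* (PRUPE_1G531100), *DAM3* (PRUPE_1G531400) and *AGL20A* (PRUPE_2G151200) among the genes with a product name, and those for anther, pollen, carpel and ovule caught 0 genes.

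Among the 23 meristem genes of the study, 5 were called higher in vegetative buds (21.7%) and 7 in flower buds (30.4%), where 13.0% and 15.3% of all genes were, and their median log2 fold change was -0.06. *AGL20A*, the counterpart of the flowering integrator *SOC1*, was among the vegetative-higher genes with 344, 333 and 341 against 155 and 164 CPM (1.09 ± 0.04). The zinc finger gene *BBX14/BBX15* (PRUPE_1G310900) was at 13.8, 9.15 and 9.50 against 3.65 and 5.07 CPM (1.31 ± 0.19). *AS1* (PRUPE_6G255800), a MYB gene that represses KNOX genes in leaf primordia, was higher in flower buds with 77.9, 84.0 and 85.9 in vegetative and 154 and 167 CPM in flower libraries (-0.96 ± 0.05). *WOX13* (PRUPE_7G183300), a homeobox gene, was at 5.02, 5.40 and 5.28 against 9.73 and 11.2 CPM and was called (FDR 8.2e-06). *FRIGIDA-likeB* (PRUPE_6G334500) differed most among the members named for *FRIGIDA*, a regulator of flowering time, with 3.03, 2.25 and 2.7 against 11.7 and 11.4 CPM (-2.12 ± 0.14), although its vegetative values reached down into the level of genes without reads. The *FRIGIDA-like* genes A, C and D were not called, with log2 fold changes of 0.08, 0.29 and -0.11. *CLF* (PRUPE_7G130900), a histone methyltransferase of the Polycomb group, was higher in flower buds with 27.1, 29.2 and 32.1 against 49.6 and 52.4 CPM (-0.79 ± 0.07). *SPL9* (PRUPE_6G256300), a factor of the change from juvenile to adult growth, and *GASA1* (PRUPE_1G341800), of a family induced by GA, were not called (-0.26 ± 0.07 and -0.14 ± 0.13).

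**Figure D2:**
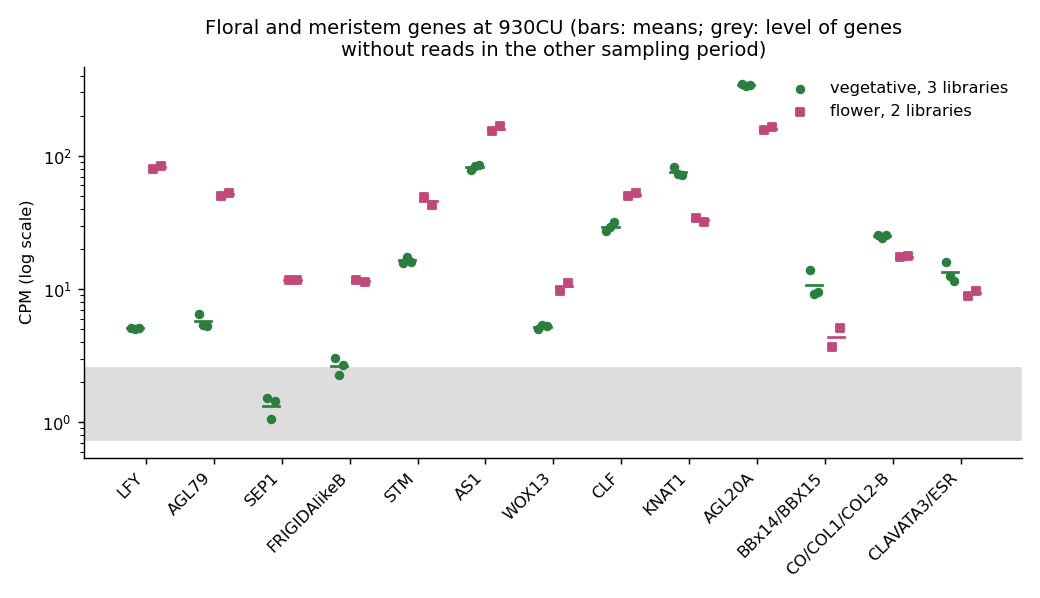
CPM on a log axis of 13 floral and meristem genes at 930CU. Circles are the 3 vegetative libraries, squares the 2 flower libraries, bars the means, and the grey band runs from the lowest median (0.74 CPM) to the highest 95th percentile (2.54 CPM) of 2263 genes without reads in the first sampling period. The bud types do not overlap for any gene shown, but all 13 are called genes, and meristem genes that were not called are not drawn. Without regard to this choice, the bud types did not overlap for 99.2% of called genes and 65.3% of all genes tested. *LFY*, *AGL79* and *SEP1* lie furthest toward flower buds, and *STM* is also higher there.

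The 8 DAM and SVP genes were all called higher in vegetative buds, where 13.0% of all genes tested were called in that direction, and their median log2 fold change was 1.19. *DAM6* (PRUPE_1G531700) was at 472, 431 and 419.7 CPM in vegetative and 131 and 129.6 CPM in flower libraries (1.76 ± 0.06, FDR 5.9e-11). *SVP1* (PRUPE_6G199000) was at 80.4, 87.6 and 89.8 against 25.8 and 26.8 CPM (1.71 ± 0.06), and *SVP2* (PRUPE_8G069300), which lies on chromosome 8, was at 158, 149.5 and 159 against 52.6 and 53.4 CPM (1.55 ± 0.06). *DAM5* (PRUPE_1G531600) followed with 182, 183 and 178 against 70.4 and 69.8 CPM (1.37 ± 0.05). Within a bud type the replicates of these genes lay close together, and no vegetative library overlapped a flower library.

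The other members of the cluster differed less. *DAM4* (PRUPE_1G531500) was at 192, 184 and 181 CPM in vegetative and 91.3 and 91.9 CPM in flower buds (1.02 ± 0.05). *DAM1* was at 41.0, 38.4 and 41.2 against 21.1 and 21.7 CPM (0.91 ± 0.05), *DAM2* (PRUPE_1G531300) at 35.5, 33.4 and 36.2 against 18.1 and 18.4 CPM (0.94 ± 0.06) and *DAM3* at 62.5, 59.6 and 61.3 against 33.3 and 37.1 CPM (0.80 ± 0.07). These values may not be separate measurements, since the genes are tandem duplicates that lie side by side. PRUPE_1G531200, the locus between *DAM1* and *DAM2* to which no name is given, was at 24.6, 24.1 and 25.2 against 12.9 and 12.2 CPM, with a log2 fold change between those of *DAM2* and *DAM4* (0.97 ± 0.06). In the first sampling period *DAM2* had 0 to 8 counts in any vegetative library. The counts of *DAM1* and *DAM2* matched a neighbour in all 5 libraries. The loci on either side of the cluster, PRUPE_1G531000 and PRUPE_1G531800, had log2 fold changes of 0.34 and 0.17 and were not called.

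**Figure D3:**
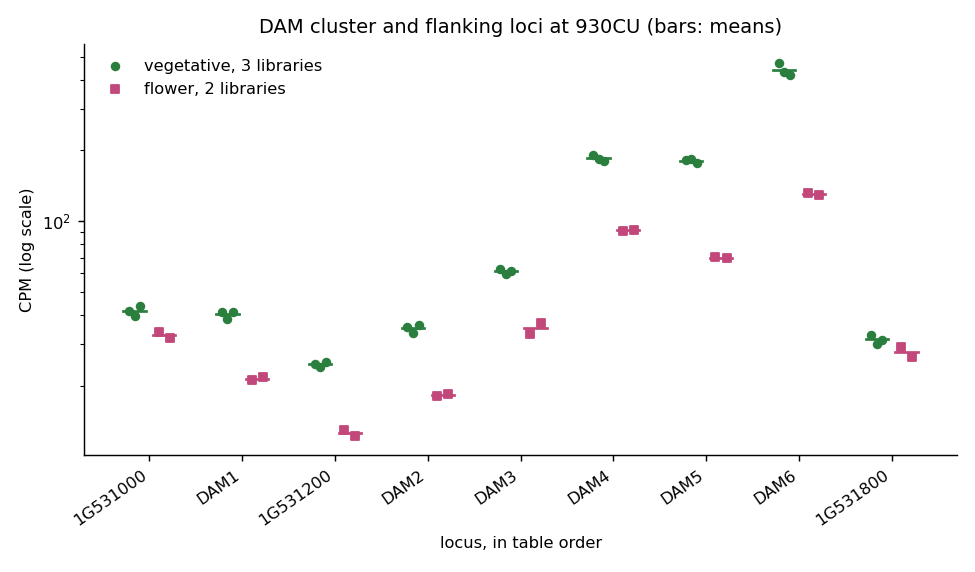
CPM on a log axis at 930CU of the DAM genes and their flanking loci in table order, with circles for the 3 vegetative libraries, squares for the 2 flower libraries and bars for the means. Vegetative libraries lie above flower libraries by about the same distance from *DAM1* to *DAM4*, the unnamed locus between *DAM1* and *DAM2* included, and by more at *DAM5* and *DAM6*.

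At Pre0CU, 0 of the 8 genes had been called between the bud types, where 7.88% of all genes were, and their median log2 fold change was 0.12. *DAM6* was then at 619, 622 and 663 CPM in vegetative and 598 and 551 CPM in flower libraries (0.14 ± 0.06), and *SVP1* at 124, 118 and 119 and 117 and 119.7 CPM (0.02 ± 0.05). The change of the contrast from Pre0CU to 930CU, tested as an interaction, was called for all 8 genes, from 0.70 for *DAM3* to 1.69 for *SVP1*, where 24.6% of all genes were called. At the collections between, *DAM6* in vegetative buds ranged from 1437 to 1588 CPM at 200CU and from 1165 to 1361 CPM at 475CU, and *SVP1* from 97.0 to 116 and from 84.7 to 102 CPM. These ranges use TMM factors from 16 libraries of the second period, while the other CPM values use those of the 10 libraries fitted.

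Of the 28 JA genes, 13 were called higher in flower and 5 in vegetative buds, with a median log2 fold change of -0.42. Of all genes tested, 15.3% and 13.0% were called in these directions, against 46.4% and 17.9% of the JA genes. Flower-higher genes were found in synthesis and signalling. The gene that the study names *OPR3* (PRUPE_3G039200), whose listed Arabidopsis counterpart and product name are those of the lipoxygenase *LOX3*, was at 36.8, 36.5 and 35.6 CPM in vegetative and 179.9 and 311 CPM in flower libraries (-2.76 ± 0.17). *AOC4* (PRUPE_3G239900), an allene oxide cyclase, was at 15.3, 28.7 and 32.7 against 112 and 149.8 CPM (-2.34 ± 0.21). *AOC1* (PRUPE_1G306100) was at 95.3, 99.7 and 102 against 139.8 and 155 CPM (-0.57 ± 0.07), a smaller difference that also left the bud types apart. The flower libraries differed between themselves for several of these genes, with the higher value in replicate 2.

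JAZ proteins repress JA responses and their genes are known JA targets. *JAZ8* (PRUPE_4G082500) was at 3.76, 8.26 and 8.56 CPM in vegetative and 27.1 and 38.5 CPM in flower libraries (-2.22 ± 0.23), *JAZ10* (PRUPE_1G218500) at 3.03, 8.12 and 6.79 against 23.7 and 27.9 CPM (-2.08 ± 0.24) and *JAZ2* (PRUPE_3G037800) at 16.4, 26.8 and 24.4 against 48.1 and 72.3 CPM (-1.41 ± 0.17). For these genes and *AOC4*, vegetative replicate 1 was the lowest library. *JAZ3* (PRUPE_1G331500) was also higher in flower buds (-0.80 ± 0.09), while *JAZ1* (PRUPE_7G194800), *JAZ12* (PRUPE_7G189200) and the JAZ-like gene were not called (0.25, -0.38 and 0.48). *MYC4* (PRUPE_5G130500), which with *MYC2* (PRUPE_5G035400) encodes the transcription factors that JAZ proteins bind, was at 6.64, 7.80 and 6.69 against 17.8 and 18.3 CPM (-1.36 ± 0.10), and *MYC2* at 53.7, 57.9 and 52.7 against 82.5 and 139 CPM (-1.01 ± 0.16). *CYP94C* (PRUPE_6G126400), which the study places under conjugation and which oxidizes JA-isoleucine in Arabidopsis, was at 0.822, 1.01 and 1.26 against 7.53 and 12.3 CPM (-3.22 ± 0.21), and its vegetative values lay at the level of genes without reads.

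The vegetative-higher JA genes held 3 of the 14 genes of synthesis, the receptor and a gene of catabolism. *COI1* (PRUPE_2G246000), the F-box receptor of JA-isoleucine, was at 86.8, 78.7 and 81.2 CPM in vegetative and 46.3 and 46.0 CPM in flower libraries (0.83 ± 0.05). *LOX-likeA* (PRUPE_6G324100), 1 of 5 lipoxygenase copies listed side by side, was at 44.6, 47.4 and 47.6 against 17.3 and 18.9 CPM (1.37 ± 0.06). The copies B, C, D and E were not called, with values from -0.45 to 0.41. *CYP94B3* (PRUPE_3G305600), which inactivates JA-isoleucine in Arabidopsis, was at 3.14, 3.76 and 4.47 against 1.70 and 1.96 CPM (1.06 ± 0.17). Its flower values lay within the level of genes without reads elsewhere. The call of *JAR-like* (PRUPE_2G184100, 0.52) was lost without vegetative replicate 1 (0.46) or flower replicate 1 (0.42), and that of *JMT* (PRUPE_1G375800, 0.76) without flower replicate 2 (0.54). *JMT*, which methylates jasmonic acid, was at 1.47, 1.49 and 2.09 against 1.18 and 0.814 CPM, within the level of genes without reads elsewhere.

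Of the 24 ABA genes, 6 were called higher in vegetative and 7 in flower buds (25.0% and 29.2%, against 13.0% and 15.3% of all genes), with a median of 0.08. Members of the same role lay on both sides. *ABA2* (PRUPE_6G138600), a dehydrogenase of ABA synthesis, was at 36.0, 38.4 and 38.9 CPM in vegetative and 14.0 and 13.9 CPM in flower libraries (1.44 ± 0.08, FDR 7.6e-09). *NCED3* (PRUPE_4G150100), the dioxygenase of the committed step of ABA synthesis, was low in both bud types with 2.73, 2.23 and 2.92 and 2.18 and 2.74 CPM and was not called (0.12 ± 0.19), while at Pre0CU its means were 124 and 141 CPM. *CYP707A2* (PRUPE_6G072400), the hydroxylase of ABA catabolism, was higher in vegetative buds with 14.0, 17.6 and 17.5 against 6.46 and 6.83 CPM (1.30 ± 0.14). *ABA2* and *CYP707A2* thus lay on the same side. *ABA1B* (PRUPE_7G133100), named for zeaxanthin epoxidase of the carotenoid pathway that leads to ABA, was at 119, 109 and 116 against 62.7 and 64.0 CPM (0.86 ± 0.06).

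Among ABA receptors, *PYL2* (PRUPE_1G413500) was higher in vegetative buds with 6.90, 7.23 and 6.29 against 2.58 and 3.09 CPM (1.26 ± 0.14), and *PYL4* (PRUPE_6G284000) was higher in flower buds with 2.83, 3.09 and 2.41 against 12.6 and 12.2 CPM (-2.16 ± 0.18). The CAR-like genes are named for C2-domain proteins that bring receptors to the membrane in Arabidopsis, and they split as well. *CAR-likeA* (PRUPE_1G329300) was at 21.7, 20.1 and 18.0 against 7.92 and 7.27 CPM (1.39 ± 0.09) and *CAR-likeB* (PRUPE_3G162800) at 8.22, 10.2 and 10.6 against 18.8 and 20.9 CPM (-1.03 ± 0.09). *CAR-likeE* (PRUPE_3G162700), which lies next to *CAR-likeB*, was at 1.12, 1.89 and 2.13 against 5.83 and 6.20 CPM (-1.78 ± 0.23), with the vegetative values at the level of genes without reads. The glucosyltransferase genes named for *UGT71B6*, which conjugates ABA in Arabidopsis, also lie side by side and split. *UGT71B6-likeA* (PRUPE_3G184700) was at 4.63, 5.64 and 5.86 against 3.03 and 2.72 CPM (0.91 ± 0.14) and *UGT71B6-likeB* (PRUPE_3G184600) at 19.9, 21.8 and 22.8 against 33.8 and 34.2 CPM (-0.66 ± 0.12).

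Of the genes named for the bZIP factors of ABA signalling, some were higher in flower buds. *AREB2/ABF4* (PRUPE_8G125800), whose listed Arabidopsis identifier is that of the ABA hydroxylase *CYP707A4* rather than of a bZIP gene, was at 4.61, 4.27 and 4.14 CPM in vegetative and 21.6 and 23.3 CPM in flower libraries (-2.37 ± 0.14, FDR 1.4e-08). *ABI5* (PRUPE_7G112200) was at 6.47, 6.69 and 6.62 against 32.1 and 28.8 CPM (-2.21 ± 0.08). The others, *ABF1* (PRUPE_5G033700) and *AREB1/ABF2* (PRUPE_1G434500), were not called (-0.11 ± 0.08 and 0.21 ± 0.05). *SnRK2.6/OST1* (PRUPE_5G054500), the kinase that activates such factors, and *ABI1* (PRUPE_7G220600), the phosphatase that opposes it, were also not called (-0.22 ± 0.06 and 0.04 ± 0.05).

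Of the 14 GA genes, 8 were called higher in vegetative and 3 in flower buds (57.1% and 21.4%, against 13.0% and 15.3% of all genes), with a median of 0.61. *GA3ox1* (PRUPE_1G467600), the oxidase of the last step of GA synthesis, was at 39.0, 33.2 and 34.5 CPM in vegetative and 14.6 and 18.7 CPM in flower libraries (1.10 ± 0.16). *GA20ox2* (PRUPE_2G286800), an oxidase of the step before, was the opposite with 5.67, 5.00 and 4.64 against 25.8 and 22.2 CPM (-2.24 ± 0.11), and *GA20ox1* (PRUPE_2G150700) shared its direction (-0.51 ± 0.11), although its call was lost without vegetative replicate 1 (-0.45). Of the GA 2-oxidases, which inactivate GA, *GA2ox2* (PRUPE_4G080700) was at 66.6, 88.9 and 90.2 against 26.5 and 22.9 CPM (1.73 ± 0.12) and *GA2ox6* (PRUPE_1G111900) at 39.6, 40.8 and 41.6 against 17.9 and 25.1 CPM (0.93 ± 0.10). *GA2ox1* (PRUPE_4G150200) was low in vegetative buds and unequal between the flower libraries, with 1.71, 2.04 and 2.02 against 4.05 and 9.17 CPM (-1.75 ± 0.35). Its vegetative values lay within the level of genes without reads elsewhere. The receptor gene *GID1B* (PRUPE_8G249800) was at 237, 221 and 222 against 90.1 and 111 CPM (1.17 ± 0.07). Of the DELLA genes, which encode repressors of GA responses, *RGL2* (PRUPE_3G162500) was at 108, 95 and 96.2 against 53.4 and 50.4 CPM (0.94 ± 0.06), and *RGA* (PRUPE_1G329600) was not called (-0.13 ± 0.05). Of the early steps of GA synthesis, *KO* (PRUPE_1G388500, 0.77 ± 0.09) and *GA1* (PRUPE_8G239900, 0.68 ± 0.10) were higher in vegetative buds, while *KS* (PRUPE_4G128500), the synthase between them, was not called (-0.42 ± 0.06).

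**Figure D4:**
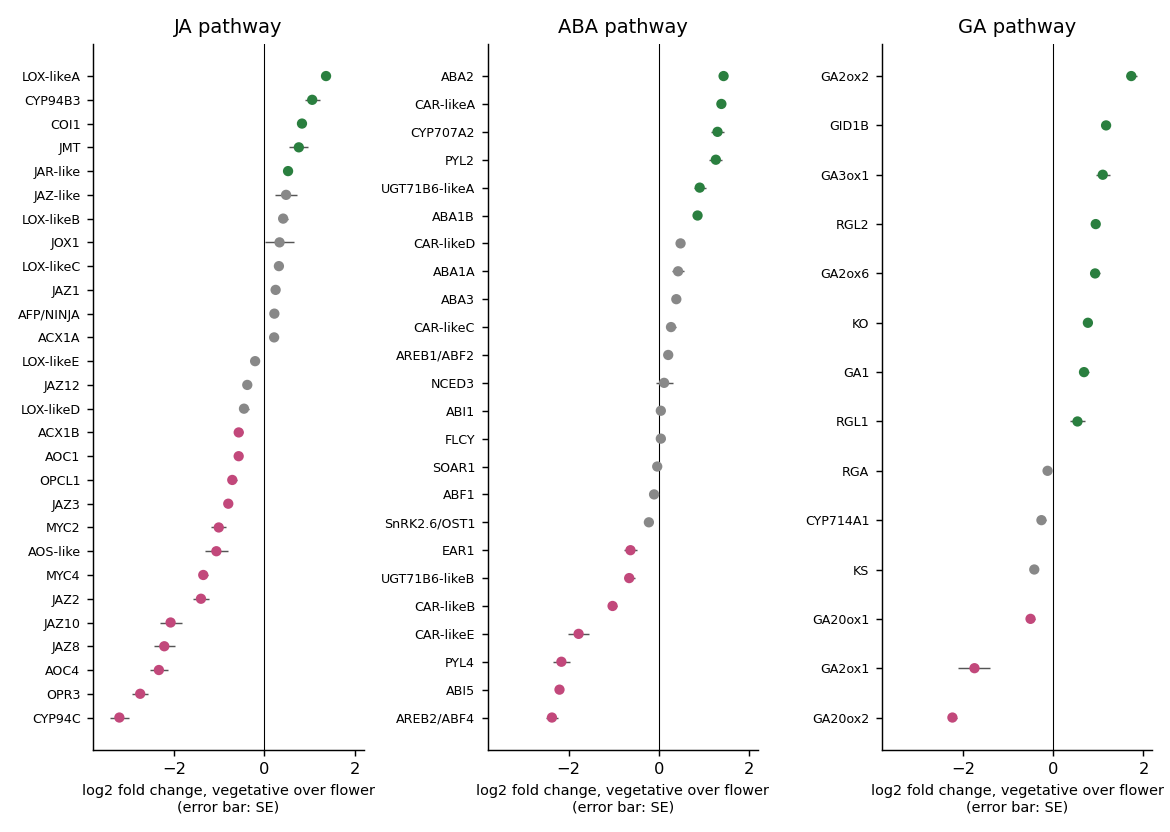
Log2 fold change at 930CU, vegetative over flower, of the 28 JA, 24 ABA and 14 GA genes of the study, with the SE as error bar. Green points are called higher in vegetative buds, pink points higher in flower buds and grey points not called. Each panel holds genes on both sides of 0. Of the called genes, 13 JA genes lie toward flower and 5 toward vegetative buds, 3 and 8 GA genes, and 7 and 6 ABA genes.

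Product names came from a table of genes that the study grouped for their decline with chilling in vegetative buds, so these genes were chosen on some of the same libraries and their directions are not independent evidence. Of the 1627 genes with a product name, 348 (21.4%) were higher in vegetative and 487 (29.9%) in flower buds, with a median of -0.07. Against this background, 10 of 12 genes of mitotic kinesins and the spindle were higher in flower buds and 0 in vegetative buds, with a median of -1.51. A wider list of genes for the cell cycle, the spindle and chromosomes, put together after values had been seen, had 31 of 41 higher in flower and 1 in vegetative buds, with a median of -1.53.

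PRUPE_3G140300, named for the spindle assembly factor TPX2, was at 4.97, 5.26 and 4.46 CPM in vegetative and 46.1 and 44.9 CPM in flower libraries (-3.22 ± 0.08, FDR 3.9e-12). The microtubule motor gene PRUPE_1G042100, a kinesin, was at 5.17, 6.20 and 6.63 against 46.1 and 43.3 CPM (-2.89 ± 0.09). The A-type cyclin PRUPE_1G491700 was at 6.75, 7.00 and 6.65 against 46.9 and 44.6 CPM (-2.75 ± 0.06). The Aurora kinase PRUPE_1G443900, which acts on mitotic chromosomes and the spindle, was at 5.32, 6.50 and 7.08 against 35.5 and 36.6 CPM (-2.51 ± 0.09). Each flower library lay above each vegetative library for these genes.

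The microtubule-associated protein MAP65-3 of the division plate (PRUPE_2G282400) was at 13.7, 14.7 and 13.4 against 76.3 and 74.1 CPM (-2.43 ± 0.08). A condensin subunit (CAP-G, PRUPE_3G017700) was at 11.4, 11.5 and 11.6 against 48.9 and 48.7 CPM (-2.08 ± 0.07). The histone H4 gene PRUPE_2G232000 was at 9.75, 11.1 and 11.9 against 69.5 and 68.4 CPM (-2.65 ± 0.08), and its counts matched those of the histone H4 gene PRUPE_2G232200, so these may not be separate measurements. Differences were smaller for subunits of DNA polymerase alpha, such as POLA3 (PRUPE_1G223400) with 19.4, 21.6 and 20.4 against 41.4 and 38.6 CPM (-0.97 ± 0.06). Of the D-type cyclins, PRUPE_1G430500 was higher in flower buds (-0.81 ± 0.06) and PRUPE_1G259100 was not called (-0.03 ± 0.05). The gene higher in vegetative buds encodes an HMG-B protein that binds DNA (PRUPE_1G358300, 0.50 ± 0.10). At Pre0CU 9 of the 41 genes were called between the bud types, each higher in flower buds, and the interaction was called for 34. Of all genes, 4.66% were higher in flower buds at Pre0CU and 24.6% were called in the interaction, and of the 1627 genes with a product name these were 234 and 724. The 2 tubulin genes with a product name were both higher in flower buds, with a median of -0.90.

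**Figure D5:**
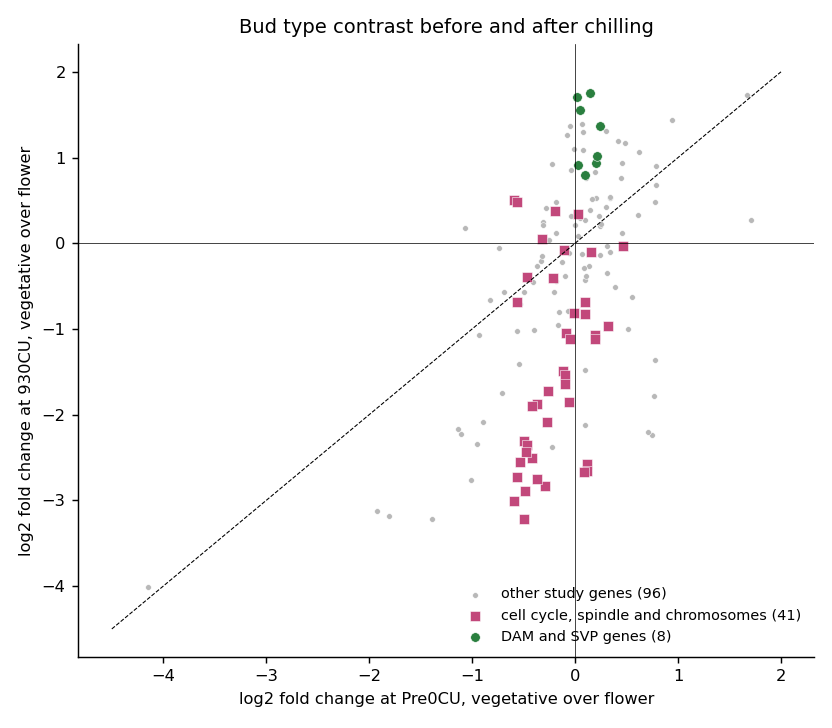
Log2 fold change between the bud types, vegetative over flower, at Pre0CU (x axis) and at 930CU (y axis), with the dashed line at equal values. The 8 DAM and SVP genes lie close to 0 at Pre0CU and between 0.80 and 1.76 at 930CU, and most of the 41 cell cycle, spindle and chromosome genes lie below the dashed line.

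Wall-related genes were also split. Of all genes with a product name, from which these lists come, 29.9% were higher in flower and 21.4% in vegetative buds. Of 9 expansin and xyloglucan hydrolase genes, 6 were higher in flower and 2 in vegetative buds. The xyloglucan gene PRUPE_3G171800, whose product remodels cell walls, was at 3.09, 6.48 and 7.25 CPM in vegetative and 19.5 and 70.9 CPM in flower libraries (-2.97 ± 0.50), with a wide gap between the flower libraries. It is 1 of 6 adjacent loci that were 3.31-fold to 7.84-fold higher in flower buds. PRUPE_1G169700, a gene with the same product name on chromosome 1, was higher in vegetative buds with 139, 122 and 122 against 56.5 and 55.4 CPM (1.19 ± 0.10). Of 7 pectin modification genes, 2 were higher in vegetative and 1 in flower buds. The flower-higher gene was a pectate lyase, which cuts pectin, with 19.2, 22.6 and 21.7 against 68.4 and 69.4 CPM (PRUPE_2G206100, -1.70 ± 0.07). Of 12 starch and sugar genes, 7 were higher in flower and 2 in vegetative buds, among them a trehalose-6-phosphate phosphatase with 4.67, 5.51 and 4.90 in vegetative and 18.1 and 24.7 CPM in flower buds (PRUPE_2G277800, -2.09 ± 0.12). Some genes that the words of this list caught act on pectin or nucleotide sugars instead.

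BURP-domain genes, a plant family that includes the drought-induced *RD22*, stood together on chromosome 1. The 9 with that product name were all called higher in flower buds, where 29.9% of all genes with a product name were. The BURP list was also put together after values had been seen. The *RD22* copy PRUPE_1G476200 was at 11.9, 14.2 and 14.2 CPM in vegetative and 399 and 389 CPM in flower libraries (-4.87 ± 0.12), and PRUPE_1G477200 was at 22.5, 25.4 and 24.3 against 503 and 499 CPM (-4.38 ± 0.09). The copy PRUPE_1G475800, also abundant, differed far less with 660.1, 636 and 629 against 923 and 953 CPM (-0.55 ± 0.04). From PRUPE_1G475900 to PRUPE_1G477400, 16 loci in a row were 4.26-fold to 29.3-fold higher in flower buds. Of these 16, 9 had fewer than 10 counts in each library of the first sampling period, and whether their values at 930CU hold counts of abundant neighbours was not tested. Over all tested genes, the log2 fold changes of adjacent loci had a correlation of 0.24 over 26722 pairs, and of loci 50 positions apart 0.004 over 26281 pairs. These are values across genes that share the same libraries.

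Vegetative-higher genes with product names were of other kinds. The counts below stand against 21.4% higher in vegetative and 29.9% in flower buds among all genes with a product name. Peroxidase 4 (PRUPE_2G260800), of a family that acts in cell walls, was at 121, 94.2 and 92.8 CPM in vegetative and 25.7 and 32.9 CPM in flower libraries (1.81 ± 0.12). Of 15 phenylpropanoid and lignin genes 6 were higher in vegetative and 1 in flower buds, with a laccase at 27.9, 26.3 and 27.8 against 12.5 and 15.3 CPM (PRUPE_2G257400, 0.98 ± 0.08). Of 20 cutin and wax genes 7 were higher in vegetative and 3 in flower buds, with the hydroxylase CYP86B1 at 25.3, 20.8 and 20.3 against 8.06 and 10.2 CPM (PRUPE_1G348000, 1.28 ± 0.12). Cytochrome P450 genes, a list also made after values had been seen, counted 9 higher in vegetative and 1 in flower buds of 16, where the words also caught 2 P450 reductases and a scaffold protein, and the reductase PRUPE_1G532800 (0.55) is among the 9. The P450 gene CYP73A100 (PRUPE_1G064900), of the family that hydroxylates cinnamate for lignin and flavonoids, was at 51.8, 51.4 and 52.7 against 18.9 and 15.3 CPM (1.60 ± 0.08).

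The next lists also come from the genes with a product name, of which 21.4% were higher in vegetative and 29.9% in flower buds. Of 63 disease resistance genes, most of them named as NLR receptors of intracellular immunity, 20 were higher in vegetative and 13 in flower buds. The largest difference toward vegetative buds among members that averaged a log2 CPM of 3 or more was that of PRUPE_2G126900, with 15.6, 15.2 and 15.4 against 4.90 and 4.46 CPM (1.71 ± 0.07), and toward flower buds that of PRUPE_2G055700 (-1.29 ± 0.19). Of 20 MYB factors 9 were higher in vegetative and 3 in flower buds. The MYB gene PRUPE_1G278200, counterpart of *MYB16*, which shapes petal epidermis cells in Arabidopsis, was at 1.71, 1.07 and 1.98 CPM in vegetative and 7.02 and 7.23 CPM in flower libraries (-2.15 ± 0.18), with vegetative values at the level of genes without reads. Of 17 WRKY factors 4 were higher in vegetative and 5 in flower buds (23.5% and 29.4%), close to the shares of all genes with a product name. The counterpart of *WRKY53* (PRUPE_2G185100) was at 9.71, 9.63 and 9.41 against 26.4 and 47.0 CPM (-1.93 ± 0.20).

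Over all genes, 2112 (7.88%) were called between the bud types at Pre0CU, 864 (3.23%) higher in vegetative and 1248 (4.66%) in flower buds. Of the 3478 genes higher in vegetative buds at 930CU, 383 (11.0%) had been called in the same direction at Pre0CU and 101 (2.9%) in the opposite one. Of the 4100 higher in flower buds these were 672 (16.4%) and 114 (2.78%). *LFY* was among the genes already apart at Pre0CU, with 2.97, 3.86 and 3.07 CPM in vegetative and 56.2 and 61.4 CPM in flower libraries (-4.15 ± 0.09), and its interaction was not called (0.13 ± 0.12). *GA2ox2* had log2 fold changes of 1.67 at Pre0CU and 1.73 at 930CU. *MYC4* was called in opposite directions, with 0.78 ± 0.10 at Pre0CU and -1.36 ± 0.10 at 930CU, as were *ABI5* (0.71 ± 0.10 and -2.21 ± 0.08), *GA20ox2* (0.74 ± 0.13 and -2.24 ± 0.11) and *WOX13*. *MYC4* was then at 14.6, 15.0 and 12.8 CPM in vegetative and 8.57 and 7.88 CPM in flower libraries, with no overlap.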

How the data were processed

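RNA from vegetative and flower buds was sequenced, and the authors deposited raw read counts per gene, made with fastp, STAR and bedtools multicov 2.30.1 on exons after duplicate reads were discarded. The strand setting of that counting is not given in the sources used here, so overlapping and antisense genes are uncertain. Discarding duplicates lowers the counts of abundant genes most. Counts of 10 libraries were fitted in R 4.3.3 with edgeR 4.0.16 (TMM, filterByExpr, glmQLFit and glmQLFTest), and p-values were adjusted by Benjamini-Hochberg over 26790 genes. CPM values use the TMM factors. On simulated data for the contrast at 930CU, 85.1% of 67 genes changed 1.5-fold were called, and 2 of 26755 genes were called falsely. The simulation gave every gene the same dispersion, held no deviating library and changed far fewer genes than were called here. Its rates therefore need not hold for the real libraries.

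Replicates are separate bud collections as far as the labels say, so p-values measure only the spread between these samples. Same-numbered libraries had deviations correlated by -0.122 to 0.088 and were not paired. Named genes were those the study names, the largest changes among abundant called genes without overlap between the bud types, and up to 4 members of each list. The comparison and the lists were chosen with earlier results of these data known. The lists of cell cycle, tubulin, cytochrome P450 and BURP genes were added after values had been seen. Of 34 word lists, 20 had at least 4 members with a product name. Alternatives covered scaling, filters, thresholds, the samples fitted, DESeq2 1.42.0, a replicate block and each library left out.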

Additional observations from a re-analysis of the deposited data

Results flagged for a closer look

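By the interaction term of edgeR's fit, the contrast between the bud types differed between Pre0CU and 930CU for 6594 of 26790 genes (24.6%). It differed for 54 of the 104 genes that the study names. The values below are the difference of the log2 ratios, 930CU minus Pre0CU, for the 44 of them that were also called at 930CU. The label of total RNA on the vegetative libraries of Pre0CU cannot be told apart from these changes.

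Among DAM and SVP genes it moved toward vegetative buds for *SVP1* (1.69), *DAM6* (1.61), *SVP2* (1.51), *DAM5* (1.12), *DAM1* (0.88), *DAM4* (0.81), *DAM2* (0.74) and *DAM3* (0.70). Among JA genes it moved toward vegetative buds for *LOX-likeA* (1.42) and *COI1* (0.64). It moved toward flower buds for *MYC4* (-2.14), *CYP94C* (-1.83), *OPR3* (-1.75), *AOC4* (-1.39), *JAZ10* (-1.19), *JAZ8* (-1.12), *JAZ2* (-0.87), *JAZ3* (-0.65) and *MYC2* (-0.61). Among ABA genes it moved toward vegetative buds for *PYL2* (1.34), *CAR-likeA* (1.32), *CYP707A2* (1.22), *ABA1B* (0.90) and *ABA2* (0.50). It moved toward flower buds for *ABI5* (-2.92), *CAR-likeE* (-2.55), *AREB2/ABF4* (-2.15), *EAR1* (-1.18) and *PYL4* (-1.03). Among GA genes it moved toward vegetative buds for *GA2ox6* (1.15), *GA3ox1* (1.11) and *GID1B* (0.69). It moved toward flower buds for *GA20ox2* (-2.98) and *GA20ox1* (-0.90). Among meristem genes it moved toward vegetative buds for *AGL20A* (1.02), *BBX14/BBX15* (1.01) and *KNAT1* (0.77). It moved toward flower buds for *FRIGIDA-likeB* (-2.21), *STM* (-1.58), *WOX13* (-1.51), *AGL79* (-1.37) and *AS1* (-0.79). Among the other genes of the study it moved toward flower buds for *SEP1* (-1.21) and *CLF* (-0.72).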

How the results depend on the processing

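The 7578 calls at 930CU became 1393 (322 higher in vegetative and 1071 in flower buds) with an absolute log2 fold change above 1.4, 13450 (6567 and 6883) with no fold threshold, and 4699 (2011 and 2688) with the fold of 1.4 tested within the model. At Pre0CU the 2112 calls became 164 and 5286 under the first and second of these and 1249 at an FDR below 0.01 and a fold above 1.5, and the 6594 interaction calls became 1322 and 10438. The share of calls higher in vegetative buds was 45.9% as reported and 23.1% with a log2 fold change above 1.4. Leaving out each library in turn gave 7103 to 7459 calls at 930CU (3239 to 3404 higher in vegetative and 3784 to 4064 in flower buds), 2056 to 2194 at Pre0CU and 6137 to 6448 in the interaction. With the replicate number as a block, although no pairing of the samples is known, the counts were 7464, 1969 and 6414. DESeq2 called 7579 genes, a fit of the 5 libraries alone 7409, genes of at least 2 CPM in the higher bud type 7035, and genes without a count match to a neighbour 6816, where the last pair of settings was chosen after seeing the data. Among the genes that the study names, 1518 of 1543 values under other settings than the call thresholds stayed called or stayed not called. The call was lost in 13 values and gained in 12, and 0 values of genes called in either fit reversed direction. Changes of sign in genes called in neither fit were not counted. Besides the genes given above, *RGL1* lost its call without flower replicate 1 (0.42) or vegetative replicate 2 (0.45), *ACX1B* (-0.47) and *AOS-like* (-0.53) without flower replicate 2, and *WOX1* (-0.47) without vegetative replicate 1. *JAZ-like* (0.61) and *JOX1* (0.65) gained it without vegetative replicate 1, *LOX-likeD* (-0.66) without flower replicate 1, and *CO/COL1/COL2-A* without either (-0.54 without flower and -0.55 without vegetative replicate 1). *ABA1A* (0.49) gained its call with the replicate block, and *CAR-likeD* with DESeq2 size factors or test (0.49), with 16 libraries (0.50) and without flower replicate 2 (0.53) or vegetative replicate 2 (0.49) or 3 (0.51). With 16 libraries *EAR1* (-0.62) and *ACX1B* (-0.56) lost theirs. With 2 flower libraries, an unusual flower library cannot be told from the other.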

Other observations

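A block of 4 neighbouring loci on an unplaced scaffold, found after values had been seen, had reads almost only in flower buds at 930CU. PRUPE_I004900 was at 59.7 and 44.7 CPM in the flower libraries, PRUPE_I004700 at 20.3 and 16.0 CPM and PRUPE_I004800 at 3.45 and 2.50 CPM. These 3 loci had no count in the vegetative libraries at 930CU or in any library of Pre0CU. Set against 3 counts per library, PRUPE_I004900 was at least 688-fold higher in flower buds, PRUPE_I004700 at least 246-fold and PRUPE_I004800 at least 38-fold. PRUPE_I004600 was at 81.0 and 59.2 CPM in the flower libraries and at 0.0, 0.0 and 0.0277 CPM in the vegetative libraries. No product name was at hand for these loci.

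Of 6 ethylene genes with a product name, 4 were higher in vegetative and 1 in flower buds, with a median log2 fold change of 1.02. Of 8 genes with heat shock words 4 were higher in vegetative and 2 in flower buds, and of 3 auxin transport genes 0 and 2. Of all genes with a product name, 21.4% were higher in vegetative and 29.9% in flower buds. The smaller lists of flavonoid, lipid transfer, pectin, cytokinin and auxin signalling genes held 0 to 2 calls in each direction.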
